A study of Mus musculus with 8 samples.

Results

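Macrophage lipid handling genes are described here in distal lung cells of mice that carry a normal or a calcium-restricted nicotinic α7 receptor and were or were not exposed to cigarette smoke (CS). The 9 genes, Pparg, Nr1h3, Lpl, Fabp4, Fabp5, Plin2, Abca1, Abcg1 and Apoe, were taken by symbol from 22756 genes in each count file, and all 9 were among the 7196 transcripts that were abundant enough to test. The 8 RNA-Seq libraries fall into 4 groups of 1 male and 1 female library each, all from adult mice of a mostly C57BL/6 background. Both genotypes carry an IRES-tauGFP reporter in Chrna7, the gene of the α7 receptor. The α7G mice carry this reporter alone (Chrna7-IRES-tauGFP), and the α7E260A:G mice carry in addition the E260A point mutation in the receptor (Chrna7-E260A-IRES-tauGFP). In each genotype 1 group was a control and the other received side-stream CS on 5 days per week for 4 months. The lungs were lavaged and the interstitial cells depleted of CD45+ cells by magnetic beads, so that the sample was prepared as epithelium and macrophages are cells that the preparation was meant to remove. The number of mice behind a library is not given in the sources used here, and since nothing says how each group's pair of libraries relates to separate animals, p-values measure only the spread between these libraries.

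Alveolar macrophages take up and break down the lipid-rich surfactant that alveolar type II cells secrete, and a disturbance of this balance gives lipid-laden, foamy macrophages. The nuclear receptor encoded by Pparg is a master regulator of alveolar macrophage identity and of fatty acid uptake and storage, and the liver X receptor α encoded by Nr1h3 senses oxidized sterols and drives cholesterol export. Among genes these receptors are known to control are Lpl, which releases fatty acids from triglycerides, the cytosolic fatty acid carriers Fabp4 and Fabp5, the lipid droplet coat protein Plin2, the cholesterol exporters Abca1 and Abcg1, and the apolipoprotein Apoe, which accepts exported lipid.

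Fabp4 and Fabp5, the members that differed most between the genotypes, are related genes on chromosome 3 of the mm9 genome build, Fabp4 from 10204347 to 10208576 on the minus strand and Fabp5 from 10012548 to 10016607 on the plus strand. Their coding sequences (CDS) align with 60.05% identical bases, and the longest run of bases they share is 12. The most alike stretch of 60 bases without a gap is printed to show how reads of the 2 transcripts are told apart, with the bases that differ in capitals. It covers CDS bases 55 to 114 of Fabp4 and 61 to 120 of Fabp5, spans the junction of the first and the second coding exon in both (chr3:10208439-10208457 with chr3:10206082-10206122 on the minus strand, and chr3:10012700-10012718 with chr3:10014971-10015011 on the plus strand), and 44 of its 60 bases are identical.
Fabp4: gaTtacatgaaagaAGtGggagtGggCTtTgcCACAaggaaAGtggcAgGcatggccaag
Fabp5: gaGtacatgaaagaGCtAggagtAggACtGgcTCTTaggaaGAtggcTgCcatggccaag
Copies of the Fabp5 CDS with at least 90% identity over at least 80% of its length stand at 5 other places in the mm9 genome, the closest at 98.3%, so part of the Fabp5 reads could have been lost or placed elsewhere by the authors' counting and the Fabp5 values are uncertain to that extent. No other member had such a copy.

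Promoter sequences (250 bases before to 50 after a transcription start) were found in the RefSeq table of build GRCm38.p6 for Pparg, Plin2, Abca1, Apoe and Nr1h3, and there was no entry for Fabp4, Fabp5, Lpl and Abcg1. The nuclear receptor core motif AGGTCA was searched on both strands, together with its direct repeats spaced by 1 base (AGGTCANAGGTCA, DR1, the element bound by Pparg with its partner) and by 4 bases (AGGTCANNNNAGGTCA, DR4, the element bound by Nr1h3), each of which contains the core motif. The core motif was present in 1 window of Plin2 and in 2 of the 3 windows of Pparg, and in none of Abca1, Apoe and Nr1h3, against 16.3% of all 32851 promoters of this length. DR1 and DR4 with exactly these core letters were in no window of a member, and in 0.0396% and 0.0152% of all promoters. Repeats that differ from the core motif in any base were not searched for, so a member's window may still hold one. The windows that hold the core motif are printed with its letters in capitals, which on the Plin2 strand read as the reverse complement.
Pparg, chr6:115360894-115361193, plus strand: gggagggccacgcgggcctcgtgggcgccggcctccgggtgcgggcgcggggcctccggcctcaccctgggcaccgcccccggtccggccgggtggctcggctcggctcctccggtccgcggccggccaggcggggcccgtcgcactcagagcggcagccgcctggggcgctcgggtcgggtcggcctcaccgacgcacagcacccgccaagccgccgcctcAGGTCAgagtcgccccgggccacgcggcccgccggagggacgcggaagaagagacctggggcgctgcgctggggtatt
Pparg, chr6:115362099-115362398, plus strand: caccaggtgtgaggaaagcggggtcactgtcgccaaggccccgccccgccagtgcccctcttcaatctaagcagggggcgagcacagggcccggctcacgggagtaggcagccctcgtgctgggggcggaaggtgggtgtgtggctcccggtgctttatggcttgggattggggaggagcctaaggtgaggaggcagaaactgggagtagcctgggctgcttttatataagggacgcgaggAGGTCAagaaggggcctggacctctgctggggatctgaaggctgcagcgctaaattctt
Plin2, chr4:86670010-86670309, minus strand: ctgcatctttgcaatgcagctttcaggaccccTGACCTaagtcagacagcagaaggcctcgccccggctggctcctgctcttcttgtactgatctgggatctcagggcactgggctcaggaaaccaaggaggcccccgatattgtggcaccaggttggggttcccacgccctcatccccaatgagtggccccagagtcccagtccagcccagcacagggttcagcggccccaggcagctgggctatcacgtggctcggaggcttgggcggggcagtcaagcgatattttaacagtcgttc
Only whole core motifs of these letters were counted, and no binding was measured.

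Library totals ranged from 8020726 to 10944100 CDS counts, and a floor of 3 counts is 0.274 to 0.374 counts per 1000000 counts of the library (RPM). Chrna7 had 0 counts in 7 libraries and 4 in the male α7E260A:G control. A count of this gene gives no check of the genotype, since the genotypes differ in it only by a point mutation. Leukocyte and macrophage transcripts were present in the labelled epithelium. The paper reports that its purity was checked before the libraries were made, by epCAM and by the endothelial marker CD31. The epithelial gene Epcam lay between 131 and 212 RPM in α7G and between 78.5 and 92.3 RPM in α7E260A:G. RPM of single genes do not give shares of cells. The leukocyte gene Ptprc, which encodes CD45, lay between 771 and 1935 RPM. Chi3l3 and Lyz2, listed here as alveolar macrophage (AM) markers, lay between 6245 and 31633 RPM and between 8336 and 20723 RPM. Whether other cell types contributed to these levels was not tested. Libraries also differed in how counts depended on CDS length, with a slope (log2 per doubling of length) of 0.41 in the male α7E260A:G control, 0.23 in the male and 0.06 in the female α7G control, 0.19 in the male α7E260A:G CS library, and -0.24 to -0.20 in the other 4. This slope runs beside the longest member, Abca1, with 6783 bases of CDS, and the shortest, Fabp4 with 396 and Fabp5 with 405.

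Per kilobase of CDS (RPKM), Apoe and Plin2 were the most abundant members in the α7G libraries, with means over 4 libraries of 694 and 519, and their ranges overlapped (451 to 866 against 471 to 613). Abcg1 (241) and Lpl (204) followed with overlapping ranges, then Fabp5 (93.8), Pparg (85.2) and Fabp4 (63.0), and Nr1h3 (29.7) and Abca1 (10.8) were the lowest. In the α7E260A:G libraries Plin2 led with a mean of 884 RPKM (753 to 963), above every Apoe value (448 to 540). Fabp5 with 451 RPKM and Fabp4 with 394 RPKM then stood in the same range as Apoe (484), Abcg1 (449) and Lpl (366), while Pparg (135), Nr1h3 (38.6) and Abca1 (17.6) were the lowest. By their means the fatty acid carriers therefore moved from below Lpl to above it, but not in both sexes. In the female α7E260A:G libraries Fabp4 (604 RPKM in the control and 519 after CS) and Fabp5 (618 and 591) were above Lpl (256 and 347). In the male α7E260A:G libraries Fabp4 (158 and 293) and Fabp5 (188 and 405) were below Lpl (406 and 456). The order of the means of Pparg, Nr1h3 and Abca1 was the same in both genotypes.

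**Figure D1:**
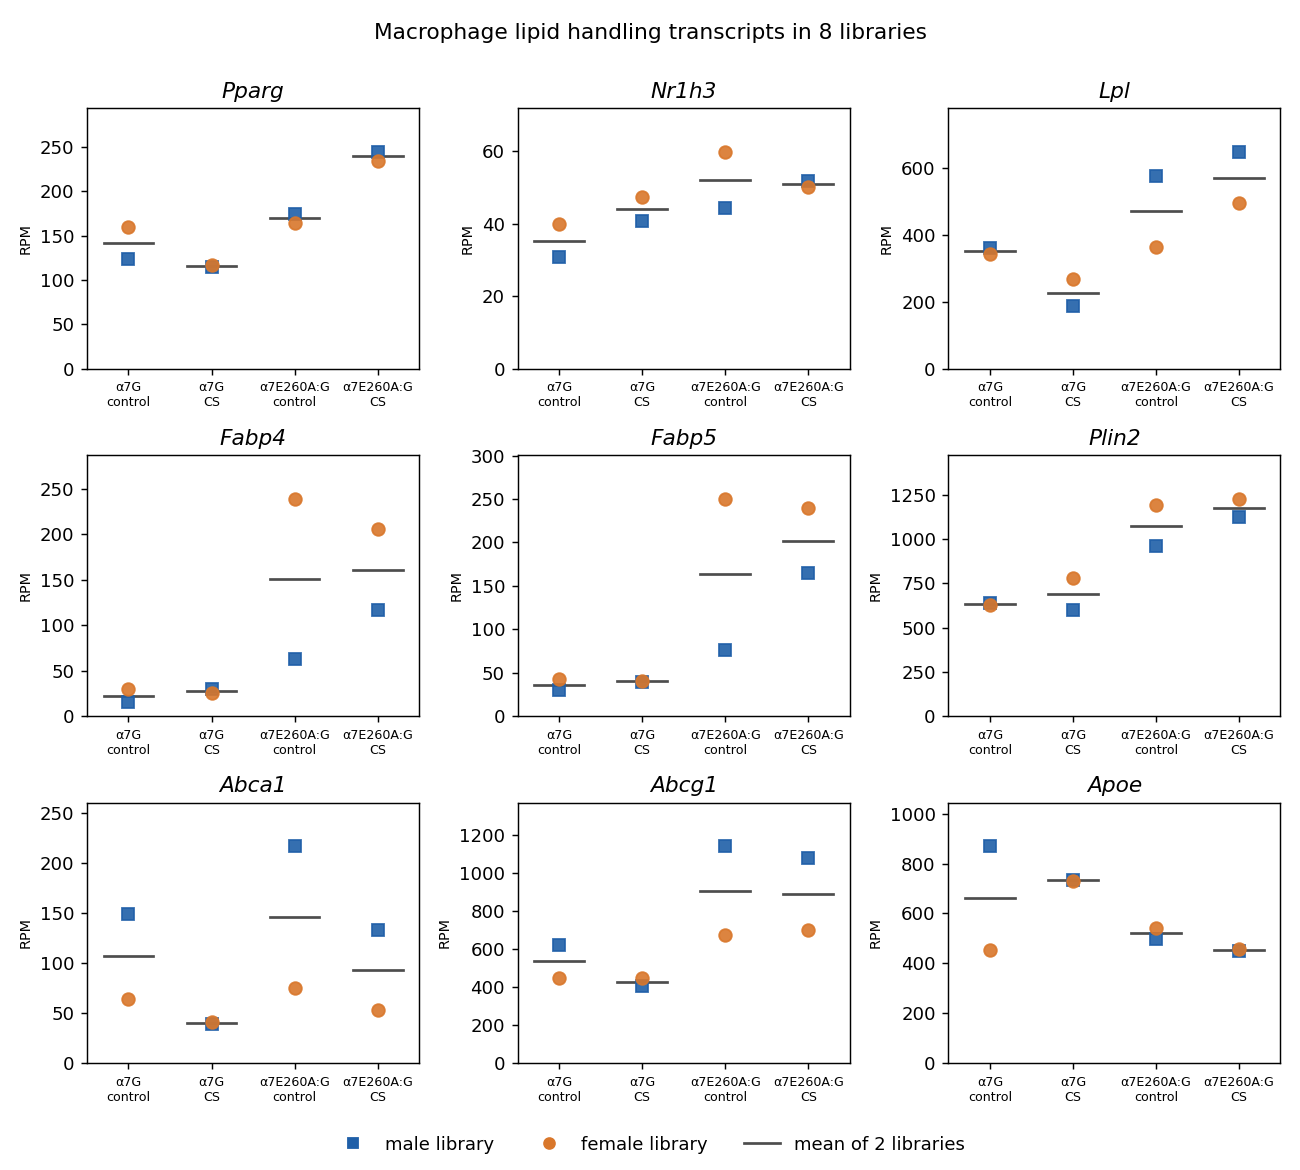
RPM (y axis from 0) of the 9 members in the 4 groups on the x axis, with a square for the male library, a circle for the female library and a line at their mean. Every α7E260A:G library lies above every α7G library for Pparg, Lpl, Fabp4, Fabp5, Plin2 and Abcg1, while Nr1h3, Abca1 and Apoe overlap.

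The first comparison asks whether these transcripts differ between mice with the calcium-restricted and the normal α7 receptor, over both exposures. Of the 9 members, 8 were higher in α7E260A:G in 4 of 4 pairs matched for sex and exposure, and Apoe was higher in 1 of 4. The values of the genotypes did not overlap for 6 members, all higher in α7E260A:G, with mean ratios from 1.58 for Pparg to 6.25 for Fabp4, against 2.99% of all transcripts tested, and for no member in the other direction, against 5.14%. None of the 9 passed an adjusted p of 0.05 in edgeR's quasi-likelihood test across all transcripts, against 0.0834% of all, and 6 passed at an unadjusted p of 0.05, as did 854 of 7196 transcripts. With an offset for CDS length in the same edgeR test, 6 of 9 passed, all higher, against 4.02% of all transcripts called higher and 2.61% called lower, and by DESeq2 also 6 of 9, against 3.7%. These were in both cases the 6 that did not overlap. In a two-sided exact permutation test of the mean RPM, run for each of the 9 members, these 6 had p = 0.0286, the smallest that 70 arrangements of 4 against 4 libraries allow. Values without overlap always give this p, so for these 6 it restates the overlap. The median log2 fold-change of the 9 members was 0.85 (0.85 with the offset), and that of all transcripts 0.04. The count of members called moved with 2 libraries: without the male α7E260A:G control edgeR called 2 of 9, Fabp4 and Fabp5, against 1.71% of all transcripts, and without the female α7E260A:G control it called 4 of 9, Lpl, Fabp4, Fabp5 and Abcg1, against 3.82%.

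Pparg (ENSMUSG00000000440.6, chr6:115311239-115440419 on mm9) was at 124 RPM in the male and 160 RPM in the female α7G control and at 115 and 117 RPM in the male and female α7G CS libraries. In α7E260A:G it was at 175 and 164 RPM in the male and female controls and at 244 and 234 RPM after CS. The highest α7G library, the female control, was thus just below the lowest α7E260A:G library, also the female control. The means were 129 ± 21.1 and 204 ± 40.8 RPM (SD, n = 4), a log2 fold-change of 0.71 ± 0.16 (SE) with an edgeR adjusted p of 0.129 and 0.0181 with the length offset. The ratio of the means was 1.75 in male and 1.44 in female libraries.

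Nr1h3, the other receptor (ENSMUSG00000002108.4, chr2:91024218-91042991), had the second lowest mean RPKM of the members. It lay at 30.8 and 39.8 RPM in the male and female α7G controls and at 40.7 and 47.4 RPM after CS, against 44.5 and 59.8 RPM in the α7E260A:G controls and 51.9 and 50.1 RPM after CS. The female α7G CS library was above the male α7E260A:G control, so the genotypes overlapped. The log2 fold-change was 0.47 ± 0.23 (SE) with an edgeR adjusted p of 0.499, and the exact permutation test, two-sided, gave p = 0.0571.

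Lpl, the secreted lipase (ENSMUSG00000015568.8, chr8:71404390-71431347), was at 362 and 342 RPM in the male and female α7G controls and at 187 and 268 RPM in the α7G CS libraries. It was at 577 and 364 RPM in the male and female α7E260A:G controls and at 648 and 494 RPM after CS. The groups were separate, although the female α7E260A:G control exceeded the male α7G control only by 364 to 362 RPM. The means of 290 ± 79.7 and 521 ± 122 RPM (SD, n = 4) gave a log2 fold-change of 0.91 ± 0.18 (SE) with an edgeR adjusted p of 0.106, and 0.0135 with the length offset.

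Fabp4 (ENSMUSG00000062515.2), a carrier that macrophages share with fat cells, differed most. It was at 15.2 and 29.2 RPM in the male and female α7G controls and at 29.8 and 25.6 RPM after CS, and at 62.7 and 239 RPM in the α7E260A:G controls and 116 and 206 RPM after CS. All 4 α7E260A:G libraries were above all 4 of α7G, and the male α7E260A:G control was the lowest of them while both female libraries were the highest. The ratio of the means, 24.95 ± 6.79 and 156 ± 80.9 RPM (SD, n = 4), was 6.25, or 3.98 in male and 8.11 in female libraries. The log2 fold-change was 2.78 ± 0.55 (SE) with an edgeR adjusted p of 0.106, and 2.64 ± 0.24 with 0.0014 with the length offset. Of 7 fat cell markers, 5 were at or near 0, with at most 5 counts of Adipoq, 6 of Cfd, 17 of Plin1 and 7 of Retn in a library and none of Lep. The other 2, Cidec and Lipe, summed to 138 to 169 RPM in α7G and 158 to 190 RPM in α7E260A:G, a ratio of 1.19 with overlapping sums and 1 of the 2 without overlap, and their part in the Fabp4 difference was not tested.

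Fabp5 (ENSMUSG00000027533.9), the second carrier, had the same order of libraries as Fabp4 among the α7E260A:G samples. It was at 29.5 and 42.4 RPM in the male and female α7G controls and at 39.6 and 40.5 RPM after CS, and at 76.2 and 250.2 RPM in the α7E260A:G controls and 164 and 239 RPM after CS. The lowest α7E260A:G value was well above the highest of α7G. The ratio of the means was 4.81, with a log2 fold-change of 2.38 ± 0.46 (SE), an edgeR adjusted p of 0.106, and 0.000791 with the length offset. Over the 8 libraries Pearson's r between Fabp4 and Fabp5 on the scale log2(RPM + 0.5) was 0.993, the highest of any tested transcript with Fabp4, followed by Wls (0.980) and Chi3l3 (0.968). These libraries share the genotype contrast and the length slopes, and r is given as a description. Among the other members of the carrier family, the liver and gut carrier Fabp1 had means of 131 and 204 RPM with overlapping ranges and an edgeR adjusted p of 0.684, and Fabp12 had 3.31 and 0.802 RPM.

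Plin2, the protein coat of lipid droplets (ENSMUSG00000028494.6, chr4:86294290-86315964), was at 637 and 626 RPM in the male and female α7G controls and at 601 and 782 RPM after CS. In α7E260A:G it was at 960.5 and 1191 RPM in the controls and at 1128 and 1228 RPM after CS. The groups were separate by a wide margin. The log2 fold-change was 0.85 ± 0.22 (SE), with an edgeR adjusted p of 0.158 and 0.0176 with the length offset, and the ratio was alike in male (1.69) and female (1.72) libraries. Among the other coat proteins Plin3 was at 104 and 139 RPM with overlapping ranges and an edgeR adjusted p of 0.291, and Plin4 and Plin5 were at 1.31 and 2.43 RPM and at 12.1 and 9.48 RPM.

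Of the exporters, Abcg1 (ENSMUSG00000024030.6, chr17:31194643-31252722), which passes cholesterol to high density lipoprotein, was separate between the genotypes and Abca1 (ENSMUSG00000015243.4, chr4:53043659-53172767), which passes it to lipid-poor apolipoprotein, was not. Abcg1 was at 621 and 448 RPM in the male and female α7G controls and at 406 and 449 RPM after CS, and at 1141 and 672 RPM in the α7E260A:G controls and 1077 and 698 RPM after CS. Its log2 fold-change was 0.94 ± 0.19 (SE) with an edgeR adjusted p of 0.111, and 0.00782 with the length offset.
Abca1 was at 149 and 63.9 RPM in the male and female α7G controls and at 39.1 and 41.4 RPM after CS, and at 217 and 74.7 RPM in the α7E260A:G controls and 133 and 52.9 RPM after CS. Its 3 highest libraries, the male α7E260A:G control, the male α7G control and the male α7E260A:G CS library, were the 3 with the highest slope on CDS length, in the same order. Its log2 fold-change of 0.84 ± 0.39 (SE), with an edgeR adjusted p of 0.478, was 0.44 ± 0.18 with the length offset and an adjusted p of 0.211. In the other transporters of the A and G families the genotypes overlapped. The transporter Abcg2 had means of 26.2 and 40.7 RPM and an edgeR adjusted p of 0.267, and Abca2, Abca7 and Abca9 had adjusted p of 0.486, 0.765 and 0.801. Abca5, Abca6 and Abcg3, which were below the abundance filter, had means of 4.73 and 12.3 RPM, 8.34 and 10.1 RPM, and 21.1 and 19.2 RPM.

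Apoe (ENSMUSG00000002985.9, chr7:20281458-20284515) was the 1 member with a lower mean in α7E260A:G. It was at 871 and 454 RPM in the male and female α7G controls and at 736 and 729 RPM after CS, and at 497 and 543 RPM in the α7E260A:G controls and 450.5 and 456 RPM after CS. The female α7G control lay among the α7E260A:G libraries, so the genotypes overlapped. The log2 fold-change of -0.44 ± 0.23 (SE) had an edgeR adjusted p of 0.553. It was -0.19 without the male α7G control (edgeR adjusted p = 0.869) and -0.64 without the female α7G control (edgeR adjusted p = 0.487). The exact permutation test, two-sided, gave p = 0.114. The transcripts most like Apoe over the 8 libraries were the leukocyte gene Coro1a (r = 0.956), Sp110 (0.914) and Adssl1 (0.913), and those most like Pparg were Vps26a (0.975), Prkar2b (0.969) and Nek6 (0.967).

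**Figure D2:**
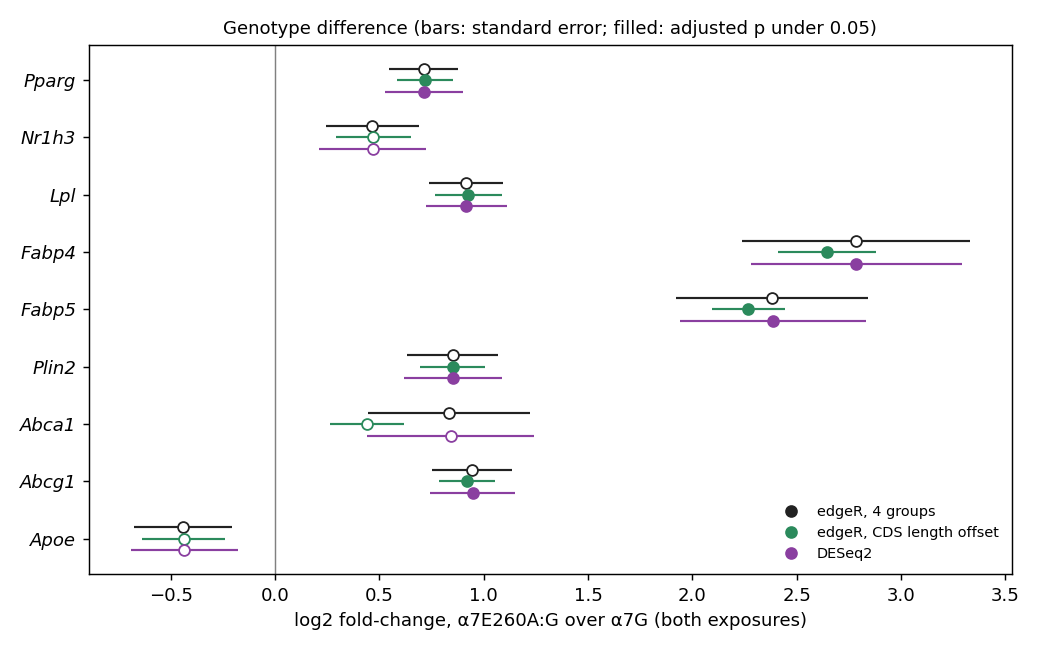
Log2 fold-change of α7E260A:G over α7G (x axis) for the 9 members (y axis), as points with bars of 1 standard error, from edgeR, from edgeR with an offset for CDS length and from DESeq2, filled where the adjusted p is under 0.05. Fabp4 and Fabp5 lie above 2 in all fits, Abca1 moves from 0.84 to 0.44 with the offset, and Apoe is the 1 member below 0.

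The abundance of macrophage transcripts differed between the genotypes as well. Single markers were compared by their mean log2(RPM + 0.5) in each genotype, and lists by summed RPM. All 18 AM markers were higher in α7E260A:G, 9 of them without overlap in RPM. Their summed level was 21679 to 32278 RPM in α7G and 38222 to 67026 RPM in α7E260A:G, a ratio of 1.996. Leukocyte markers as a whole had a ratio of 0.960, markers of interstitial macrophages and monocytes 1.17, and those of fibroblasts 1.32 with overlapping ranges. The 9 markers of alveolar type II cells were all lower in α7E260A:G, with a ratio of 0.387, and so were the 4 club cell markers, with 0.561 (47055 to 72677 RPM in α7G and 16283 to 47520 RPM in α7E260A:G), the 5 general epithelial markers, with 0.773, and the 10 endothelial markers, with 0.685. In bulk samples fewer or more cells of a type and less or more RNA per cell cannot be told apart.

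Divided by the summed AM markers in the same library, the members formed 3 sets. Fabp4 and Fabp5 were still higher in α7E260A:G. Fabp4 had 0.0699 to 0.109 RPM per 100 RPM of AM markers in α7G and 0.164 to 0.371 in α7E260A:G, a ratio of 2.98. Fabp5 had 0.125 to 0.150 and 0.199 to 0.388, a ratio of 2.30. Both were separate between the genotypes, with p = 0.0286 in a two-sided exact permutation test. Pparg, Lpl, Plin2, Abca1 and Abcg1 overlapped on this scale, with ratios of 0.812, 0.942, 0.870, 0.873 and 0.993. Relative to the AM markers Apoe was lower in α7E260A:G, with a ratio of 0.354. It had 1.61 to 4.02 RPM per 100 RPM in α7G and 0.681 to 1.30 in α7E260A:G. Nr1h3 had 0.141 to 0.150 and 0.0748 to 0.116, a ratio of 0.674. Both were without overlap and had exact permutation p = 0.0286. The AM sum itself had a ratio of 1.996, so a transcript with equal RPM in both genotypes would lie below 1 on this scale. In RPM Nr1h3 was higher in α7E260A:G, with a log2 fold-change of 0.47. The share of all transcripts without overlap was not computed on this scale.

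The marker sum rests for 67.3% to 80.2% on Chi3l3 and Lyz2. With each of the 18 markers weighted alike by a geometric mean, a check chosen after seeing the data, the ratio was 3.28 for Fabp4, 2.51 for Fabp5 and 0.385 for Apoe, each with p = 0.0286 in the exact permutation test, and 0.719 for Nr1h3. Without Chi3l3 and Lyz2 the ratios were 3.47, 2.66 and 0.402 for Fabp4, Fabp5 and Apoe, again with exact permutation p = 0.0286, and for Nr1h3 0.742 with overlap and an exact permutation p of 0.0571. The other 5 members lay between 0.855 and 1.05 by the geometric mean and between 0.887 and 1.08 without Chi3l3 and Lyz2, and overlapped. On each of these scales and on the AM sum, p = 0.0286 in the exact permutation test restates the lack of overlap. It was not adjusted over the members or the scales. A ratio of this kind shows that a member and the markers differed unequally between the genotypes, not which of them changed.

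**Figure D3:**
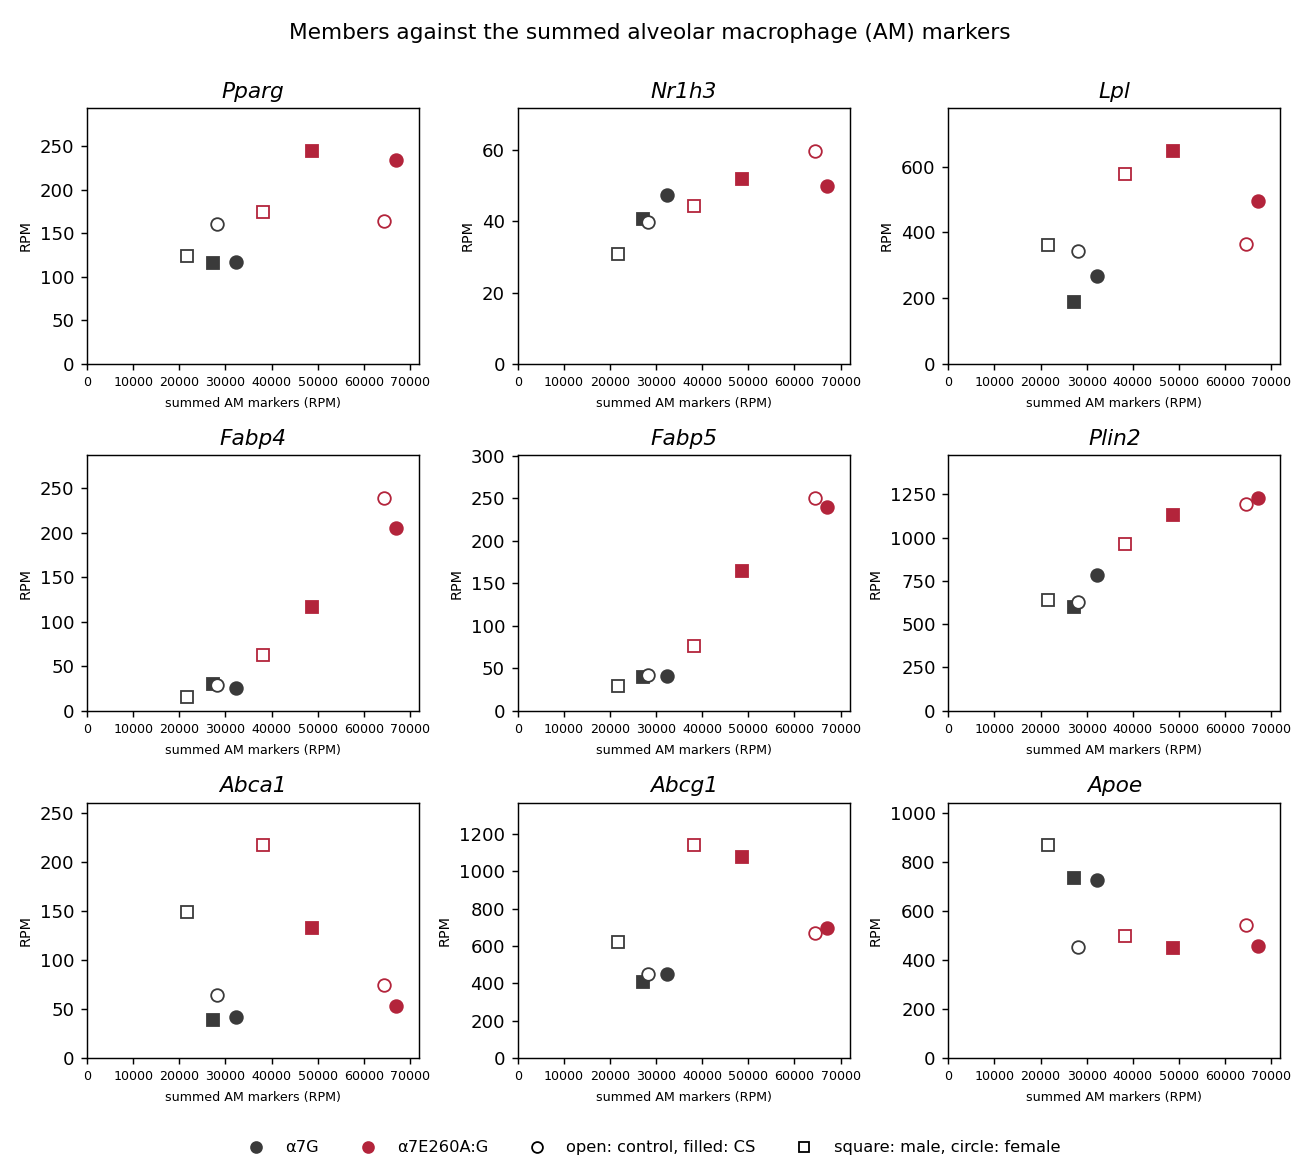
RPM of each member (y axis) against the summed RPM of the 18 alveolar macrophage (AM) markers in the same library (x axis), black for α7G, red for α7E260A:G, open for control, filled for CS, squares for male and circles for female. The 4 α7E260A:G libraries have marker sums of 38222 to 67026 RPM, and in them Fabp4 spans 62.7 to 239 RPM and Fabp5 76.2 to 250.2 RPM, lowest where the marker sum is lowest, while Apoe lies between 450.5 and 543 RPM.

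The other genes of the lipid pathways were taken from lists by function, and their counts at an unadjusted p of 0.05 for genotype stand beside 854 of 7196 transcripts. In the uptake list, 8 of 10 tested genes were higher in α7E260A:G and 4 were at an unadjusted p of 0.05. With the length offset 4 of the 10 passed, all higher, against 4.02% of all transcripts called higher. Without it 1 passed the edgeR test, the scavenger receptor Msr1, which takes up modified lipoprotein. Msr1 was at 12.8 ± 6.42 RPM in α7G and 77.5 ± 11.6 RPM in α7E260A:G (SD, n = 4), with a log2 fold-change of 2.83 ± 0.24 (SE) and an edgeR adjusted p of 0.0144. The scavenger receptor Marco, itself an AM marker, was at 354 and 1148 RPM, with an edgeR adjusted p of 0.105. Among genes that Pparg is known to drive, 7 of 10 were higher and none passed the edgeR test (2 at an unadjusted p of 0.05), and Olr1, a receptor of oxidized lipoprotein, had a log2 fold-change of 1.12 ± 0.14 (SE) with an edgeR adjusted p of 0.0640, and 0.00286 with the length offset.

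Genes of sterol and triglyceride storage and breakdown were higher for 10 of 14 tested, with a median log2 fold-change of 0.50 against 0.04 for all transcripts, and none passed the edgeR test (10 at an unadjusted p of 0.05). With the length offset 6 of the 14 passed as higher and 1 as lower, against 4.02% and 2.61% of all transcripts. The cholesterol esterifying enzyme Soat1 was at 118 and 191 RPM, and Npc1, which moves cholesterol out of lysosomes, at 154 and 250.2 RPM, with edgeR adjusted p of 0.106 and 0.177. The list of genes known to be driven by liver X receptors did not lean the same way, with 3 of 9 tested higher, a median of -0.12 and none past the edgeR test (2 at an unadjusted p of 0.05). In it the phagocytic receptor Mertk was at 125 and 245 RPM (edgeR adjusted p = 0.105) and the fatty acid desaturase Scd1, also made by type II cells, at 308 and 123 RPM (edgeR adjusted p = 0.105), both without overlap.

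For partners and coregulators of the receptors 8 of 10 tested genes were higher, with a median log2 fold-change of 0.45 that was 0.14 with the length offset, and none passed the edgeR test (1 at an unadjusted p of 0.05). The corepressor Nrip1 had a log2 fold-change of 0.92 ± 0.31 (SE) with an edgeR adjusted p of 0.274. Partners of lipoprotein lipase divided evenly, with 2 of 4 tested higher and 1 at an unadjusted p of 0.05. Gpihbp1, which holds the lipase on capillaries and is an endothelial marker, was at 47.1 and 26.6 RPM with an edgeR adjusted p of 0.163, and Sel1l, which helps the lipase fold, at 92.1 and 112 RPM. Of the ABC transporters 5 of 6 tested were higher, with a median log2 fold-change of 0.53 that was 0.15 with the length offset. None passed the edgeR test (1 at an unadjusted p of 0.05). The 1 that was lower was Abca3, the surfactant lipid transporter of type II cells, at 250.1 and 196 RPM.

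The second comparison asks how CS exposure bore on the same genes. None of the 9 members passed the edgeR test for CS over both genotypes, where 0% of all transcripts did, and 1 passed at an unadjusted p of 0.05, as did 546 of 7196 transcripts, and DESeq2 also called none of the 9, with 39 of all transcripts. For no member were the control and CS libraries separate, against 2.07% of all transcripts. The member furthest from 0 was Abca1, which was lower after CS in 4 of 4 pairs matched for sex and genotype. The CS to control ratios of Abca1 were 0.262 in male and 0.647 in female α7G mice and 0.612 and 0.707 in male and female α7E260A:G mice. The means were 126 ± 71.5 and 66.6 ± 44.7 RPM (SD, n = 4), the log2 fold-change -0.98 ± 0.39 (SE), the edgeR adjusted p 0.630 and the exact permutation p, two-sided, 0.171. With the length offset the log2 fold-change of Abca1 was -0.37 ± 0.18 (SE). The length slope also differed in the same direction, being lower in the CS library than in the control of the same sex in both α7G pairs and in the male α7E260A:G pair.

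For the other 8 members the log2 fold-change with CS lay between -0.15 and 0.20, below the SE of each, and their sign differed between libraries. Nr1h3 and Plin2 were higher after CS in 3 of 4 pairs, Pparg, Lpl, Fabp4, Fabp5 and Abcg1 in 2 of 4, and Apoe in 1 of 4. By mean log2(RPM + 0.5) the AM markers were higher after CS for 13 of 18, with sums of 21679 to 64467 RPM in controls and 27243 to 67026 RPM after CS. Of the markers of interstitial macrophages and monocytes 0 of 12 were higher after CS. Their sums were 645 to 1264 RPM in controls and 545 to 760 RPM after CS. Divided by the AM marker sums, the CS to control ratios of the members lay between 0.390 for Abca1 and 1.10 for Fabp5, and all 9 overlapped. Median log2 fold-changes in the pathway lists lay between -0.54 for receptor partners and 0.13 for genes driven by Pparg, and no listed gene passed the edgeR test. With the length offset these 2 medians were -0.11 and 0.040.

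**Figure D4:**
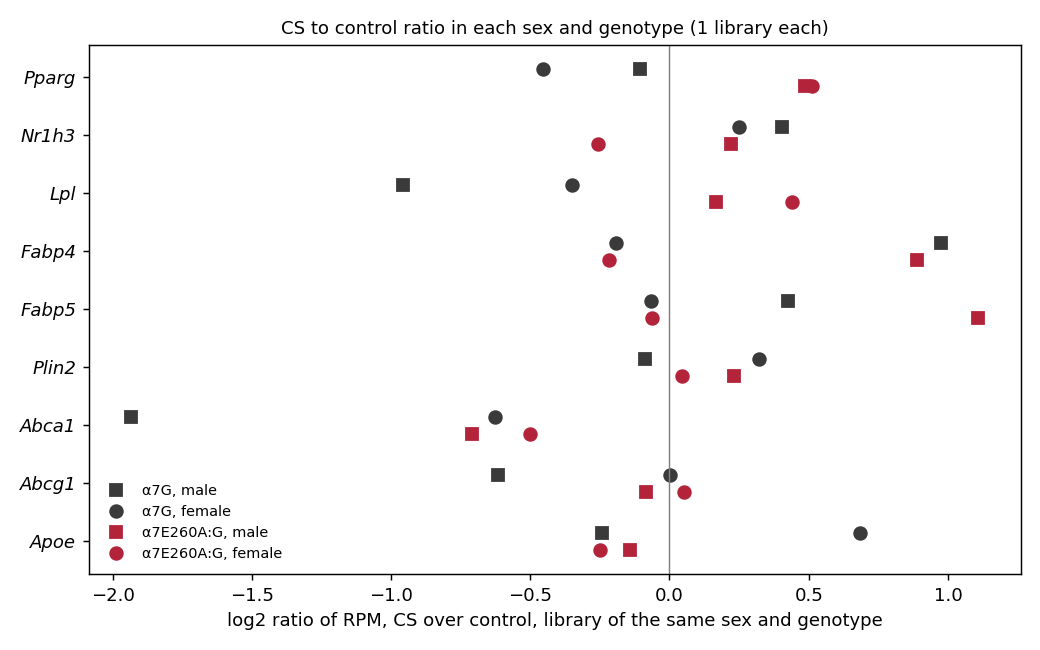
Log2 ratio of RPM in the CS library over the control library of the same sex and genotype (x axis) for the 9 members (y axis), black for α7G, red for α7E260A:G, squares for male and circles for female, with 1 library on each side of a ratio. All 4 Abca1 points are below 0, Pparg and Lpl are below 0 in α7G and above 0 in α7E260A:G, and Fabp4 and Fabp5 are above 0 in male and below 0 in female mice.

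The third comparison asks whether the members responded to CS differently in the 2 genotypes. In each genotype alone edgeR called none of the 9 members for CS, where it called 0% of all transcripts, and it called none for the difference between the responses, again with 0% of all. At an unadjusted p of 0.05 in the same fit, 487 transcripts passed in α7G, 121 in α7E260A:G and 104 for the difference. No member did. With the length offset Lpl had an unadjusted edgeR p of 0.0387 in α7G and 0.0496 for the difference, where 580 and 233 transcripts passed. DESeq2 called 25, 11 and 3 transcripts and no member at an adjusted p of 0.05. Its unadjusted p for Abca1 in α7G was 0.0278, where 757 transcripts passed. Pparg and Lpl had opposite signs in the genotypes in both sexes. The CS to control ratio of Pparg was 0.930 in male and 0.731 in female α7G mice and 1.40 and 1.43 in male and female α7E260A:G mice, and that of Lpl was 0.515 and 0.784 against 1.12 and 1.36. The difference of the responses was 0.58 ± 0.33 (SE, log2) for Pparg and 0.72 ± 0.35 for Lpl, each with an edgeR adjusted p of 0.997. With the length offset these were 0.56 ± 0.27 and 0.72 ± 0.32, with edgeR adjusted p of 0.983.

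Sex ran beside several of these values. In the α7E260A:G libraries Fabp4 was 62.7 and 116 RPM in male and 239 and 206 RPM in female mice, so the female libraries were above the male ones in both exposures, as were their AM marker sums, with 64467 and 67026 RPM in female and 38222 and 48703 RPM in male mice. Abcg1, Abca1 and Lpl had the opposite order in α7E260A:G, with both male libraries above both female ones for Abcg1 (1141 and 1077 against 672 and 698 RPM). The same male libraries had the higher slopes on CDS length. With 1 library per sex in a group, sex, the slope and the single library cannot be told apart.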

How the data were processed

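RNA-Seq was made from distal lung cells of α7G and α7E260A:G mice, with and without CS, as 8 libraries. Libraries were stranded and made from polyadenylated RNA. The authors' alignment was by STAR to mm9 (NCBIM37), and HTSeq counted reads on coding sequences of GENCODE M1. The deposited files hold the raw CDS counts, neither normalized nor filtered. All 22756 gene identifiers and symbols matched GENCODE M1, which gave coordinates and CDS lengths.

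The filter kept transcripts with a mean count of at least 200 over the 8 libraries, without immunoglobulin, histocompatibility, Gm and ribosome subunit names (7196 transcripts). The quasi-likelihood test of edgeR 4.0.16 (with limma 3.58.1 in R 4.3.3) was run with TMM factors in a model of the 4 groups with no term for sex, and adjusted by Benjamini-Hochberg over all 7196 at 0.05. The common dispersion was 0.0765. RPM use the total CDS counts of a library, and RPKM divide RPM by the CDS length in kilobases. Exact permutation tests of mean RPM, two-sided, were run for single members in Python 3.11.15 with scipy 1.17.1 over 70 arrangements. The offset for CDS length came from a lowess curve of the log2 deviation of a library against log2 CDS length, with a span of 0.667. Near-identical copies were searched with BLAST 2.17.0. As alternatives, DESeq2 1.42.0 was used, TMM factors were left out, the filter was replaced by filterByExpr (14140 genes) or by a minimum of 1 count (17542 genes), sex was entered as a block, and each library was left out in turn. The tests were checked on simulated counts. At 8020726 to 10944100 counts per library, a count floor of 3 covers counting error only.

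The members and the lists were chosen with earlier results of these data known. Named genes were the 9 members, of each pathway list every gene past the threshold and the 2 with the largest genotype difference, the Fabp, Plin, Abca and Abcg relatives with a mean of at least 10 counts, and the 3 transcripts most like Pparg, Fabp4 and Apoe. Of these, 2 genes are not reported here. Male and female libraries shared a number in each group, but deviations of libraries of the same sex correlated with r from -0.098 to 0.837 over 6 pairs of groups, so sex was not used as a pairing. The geometric mean of the AM markers and the sum without Chi3l3 and Lyz2 were added after the data were examined.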

Additional observations from a re-analysis of the deposited data

Results flagged for a closer look

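In 36 sets of 4 libraries (each member in the libraries of a genotype or of an exposure), 2 had 1 library far from the other 3, and chance gives such a library in about 1 in 20 sets. Lpl was at 577 RPM in the male α7E260A:G control, with a gap of 0.906 of the range to the next of the 4 control libraries. Abca1 was at 133 RPM in the male α7E260A:G CS library, with a gap of 0.853 of the range to the next of the 4 CS libraries.

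The response to CS had opposite signs in the 2 genotypes, in both sexes, for Pparg and Lpl. In log2 ratios of RPM, the response was higher in α7E260A:G than in α7G by 0.78 for Pparg and 0.96 for Lpl. The edgeR test with TMM factors estimated differences of 0.58 and 0.72, each with an adjusted p of 0.997.

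The response had opposite signs in the sexes, in both genotypes, for Fabp4, Fabp5 and Abcg1. Female minus male, the log2 response was -1.14 for Fabp4, -0.83 for Fabp5 and 0.38 for Abcg1. These differences between the sexes were not tested.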

How the results depend on the processing

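Each group has 1 male and 1 female library, so all values rest on few libraries, and a library left out leaves its group with 1 that is assumed to vary like the others. The genotype sign of each member was the same in all 15 alternative count tests. Over these, the log2 fold-change was 1.996 to 3.12 for Fabp4, 1.68 to 2.70 for Fabp5, 0.44 to 1.18 for Abca1, 0.24 to 0.61 for Nr1h3 and -0.64 to -0.19 for Apoe, and Nr1h3, Abca1 and Apoe were called in none. The number of transcripts called for genotype, 6 in the report, was 427 by DESeq2, 477 with the length offset, 13 with filterByExpr, 69 over all genes with at least 1 count and 1 to 275 with a library left out, and the number of members called, 0 in the report, was 6 by DESeq2, 6 with the length offset, 2 over all genes with at least 1 count and 0 to 4 with a library left out. With sex as a replicate block, 40 transcripts and no member were called, and with the replicate block and the length offset 675 transcripts and 6 members. The check in the methods was mixed, with r from -0.098 to 0.837, and does not settle whether sex pairs these libraries. The block gave CS 2 calls only together with the offset. For CS over both genotypes, with 0 calls, DESeq2 called 39 transcripts, the test over all genes with at least 1 count 1, and leaving out a library 0 to 1. DESeq2 called 25 for CS in α7G, 11 in α7E260A:G and 3 for the difference of the responses. In α7E260A:G filterByExpr gave 1 call and all genes with at least 1 count 3. The cause of these differences was not tested.

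Divided by the AM markers, the genotype log2 ratio turned negative for Pparg (-0.30), Nr1h3 (-0.57), Lpl (-0.087), Plin2 (-0.20), Abca1 (-0.20) and Abcg1 (-0.011). By the geometric mean of the markers it was -0.23 for Pparg, -0.48 for Nr1h3, -0.019 for Lpl, -0.11 for Plin2 and -0.10 for Abca1, and by the markers without Chi3l3 and Lyz2 -0.17 for Pparg, -0.43 for Nr1h3, -0.050 for Plin2 and -0.056 for Abca1. These references were higher in α7E260A:G themselves.

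CS values close to 0 changed sign. Divided by the AM markers, the CS log2 ratio was -0.18 for Pparg, -0.044 for Nr1h3, -0.12 for Plin2 and -0.24 for Apoe, and with TMM library sizes -0.011 for Fabp4. In edgeR it was -0.065 for Fabp4 and -0.042 for Fabp5 with the length offset, -0.013 and -0.021 with the replicate block and the offset, and for Apoe 0.0086 with filterByExpr and 0.0040 over all genes with at least 1 count. With a library left out it was -0.0072 to 0.37 for Nr1h3, -0.17 to 0.96 for Fabp4, -0.12 to 0.90 for Fabp5 and -0.17 to 0.24 for Apoe. The difference of the CS responses was 0.37 for Fabp4, 0.74 for Fabp5 and -0.035 for Abcg1 with the length offset, 0.37, 0.77 and -0.049 with the replicate block and the offset, and 0.038 for Fabp5 with library size scaling. With a library left out it was -1.21 to 1.07 for Fabp4, -0.81 to 1.27 for Fabp5, -0.52 to 0.16 for Plin2, -0.12 to 1.28 for Abca1 and -0.12 to 0.32 for Abcg1. None of these had passed the edgeR test.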
